A study of Arabidopsis thaliana with 12 samples.

Results

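The NHX family of Arabidopsis thaliana consists of 8 genes that encode sodium and potassium/proton exchangers. They were taken by gene identifier, 8 of the 33010 genes with values: NHX1 (AT5G27150), NHX2 (AT3G05030), NHX3 (AT5G55470), NHX4 (AT3G06370), NHX5 (AT1G54370), NHX6 (AT1G79610), SOS1, also called NHX7 (AT2G01980), and NHX8 (AT1G14660). RNA was sequenced from roots and shoots of 8-day-old seedlings kept under continuous white light (15 µE) with the temperature held at 22 °C, in a study whose title concerns the circadian clock, proton gradients and growth. Each of 4 groups held 3 libraries: roots of plants that overexpress CCA1 (CCA1-ox), roots of wild-type Col-0 plants (WT), shoots of CCA1-ox plants and shoots of WT plants. CCA1 is a MYB transcription factor of the central oscillator whose own transcript peaks around dawn. The labels give neither the promoter of the CCA1 transgene, nor the number of lines, nor the hour of harvest, and no salt treatment is named.

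NHX proteins exchange protons for sodium or potassium across a membrane, and the proton gradients that drive them are made by H+-ATPases and H+-pyrophosphatases. NHX1 to NHX4 act at the vacuolar membrane, where NHX1 and NHX2 load potassium into the vacuole for cell expansion and for guard cell movement. NHX5 and NHX6 act in the Golgi, trans-Golgi network and prevacuolar compartment, where they set luminal pH and are needed for protein sorting. SOS1 exports sodium across the plasma membrane, is activated by the kinase SOS2 with its calcium sensor SOS3 or CBL10, and is prominent in root epidermis and in cells around the xylem. NHX8 is a close relative of SOS1 at the plasma membrane and has been linked to lithium tolerance.

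Values are FPKM (fragments per kilobase of gene length, normalised for the size of the library), and members were covered by 34 to 4903 fragments per library. Summed over genes, libraries held 27142671 to 38537638 fragments in CCA1-ox roots, 37773138 to 45051329 in WT roots, 37216665 to 39814773 in CCA1-ox shoots and 39683894 to 44242304 in WT shoots. The coefficient of variation of a member within a group ran between 0.178% and 17.5%, with a median of 4.95%. CCA1 averaged 175 ± 4.36 FPKM in CCA1-ox roots and 17.1 ± 0.838 FPKM in WT roots (SD, n = 3 each), and 214 ± 1.98 FPKM in CCA1-ox shoots and 45.0 ± 0.202 FPKM in WT shoots. The 5 green tissue markers summed to 5.86 to 6.80 FPKM in CCA1-ox roots, 25.3 to 26.2 in WT roots, 24761 to 25440 in CCA1-ox shoots and 35241 to 35373 in WT shoots, as the organ labels say. The 5 root markers summed to 142 to 147 FPKM in CCA1-ox roots, 87.3 to 92.9 in WT roots, 0.429 to 0.700 in CCA1-ox shoots and 0.113 to 0.163 in WT shoots, where RHD6 and PRP3 stood at 0. No label says that the libraries of a group came from separate cultures, and p-values therefore reflect only the variation among these libraries, which could be technical.

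Because several members are close copies that behaved differently, their coding sequences were compared first. NHX1 and NHX2 shared 83.5% of 1614 aligned coding bases, SOS1 and NHX8 shared 79.9% of 2267, and NHX5 and NHX6 shared 75.4% of 1542. The longest identical runs were 44, 42 and 25 bases, and no pair of members shared a run of 50 bases, so only a short fragment inside such a run could belong to either copy. A stretch of coding exon 3 of NHX1 and NHX2 that starts inside their longest shared run is shown here from RefSeq TAIR10.1. Capitals mark the 14 of 98 bases that differ, at chr5:9555028-9555125 on the plus strand for NHX1 and chr3:1395837-1395934 on the minus strand for NHX2.
NHX1: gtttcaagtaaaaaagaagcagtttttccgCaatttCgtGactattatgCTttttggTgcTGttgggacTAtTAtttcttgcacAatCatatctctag
NHX2: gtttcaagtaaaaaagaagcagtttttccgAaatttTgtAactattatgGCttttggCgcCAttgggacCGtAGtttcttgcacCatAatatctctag

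The endosomal pair is shown over a stretch of coding exon 3, at chr1:20296662-20296721 for NHX5 and chr1:29956486-29956545 for NHX6, both on the minus strand. Capitals mark the 7 of 60 bases that differ.
NHX5: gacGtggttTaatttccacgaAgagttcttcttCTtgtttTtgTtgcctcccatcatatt
NHX6: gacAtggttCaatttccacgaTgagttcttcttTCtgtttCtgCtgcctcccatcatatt

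The plasma membrane pair is shown over a stretch of coding exon 5 around their longest shared run, at chr2:457909-458028 on the plus strand for SOS1 and chr1:5035519-5035638 on the minus strand for NHX8. Capitals mark the 16 of 120 bases that differ, and the uninterrupted lower-case run in the middle is the 42-base identity.
SOS1: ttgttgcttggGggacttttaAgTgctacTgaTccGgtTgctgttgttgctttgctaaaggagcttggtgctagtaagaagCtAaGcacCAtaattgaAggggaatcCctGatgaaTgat
NHX8: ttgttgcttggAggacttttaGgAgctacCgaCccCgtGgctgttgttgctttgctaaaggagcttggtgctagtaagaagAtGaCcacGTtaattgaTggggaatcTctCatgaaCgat

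The gene models also separate the classes. The RefSeq TAIR10.1 spans are chr5:9553300-9557594 for NHX1, chr3:1393142-1397627 for NHX2, chr5:22469245-22472706 for NHX3, chr3:1929946-1934073 for NHX4, chr1:20293151-20297236 for NHX5, chr1:29952873-29957201 for NHX6, chr2:457002-463408 for SOS1 and chr1:5031943-5036610 for NHX8, with NHX1 and SOS1 on the plus strand. The vacuolar genes NHX1 to NHX4 have 14 or 15 exons and 1590 to 1659 coding bases, the endosomal NHX5 and NHX6 have 21 and 22 exons with 1566 and 1608 coding bases, and the plasma membrane genes are longer, with 23 exons and 3441 coding bases in SOS1 and 19 exons and 2271 in NHX8. SOS1 encodes 1146 residues, including a long cytosolic tail through which it is regulated, and NHX8 encodes 756. Genes on the opposite strand overlap 4 members. TAF6B, at a mean of 21.9 FPKM over all libraries, covers 174 bases of NHX5, which stood at a similar level. The genes that overlap NHX2, NHX3 and NHX8 reached at most 0.247, 1.22 and 0 FPKM in any library. Libraries came from a stranded kit, but the strand setting of the counting is not given in the sources used here, so the NHX5 value may include fragments of TAF6B.

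NHX1 and NHX5 were the most abundant members in every group and NHX3 the least. NHX1 stood at 37.9 ± 0.424 FPKM in CCA1-ox roots, 37.5 ± 0.479 in WT roots, 31.6 ± 0.0561 in CCA1-ox shoots and 32.2 ± 0.170 in WT shoots (SD, n = 3 each), a level above that of 82.6% to 86.7% of the genes tested. NHX5 followed at 27.3 ± 1.47 FPKM in CCA1-ox roots, 27.7 ± 0.832 in WT roots, 24.2 ± 0.546 in CCA1-ox shoots and 24.2 ± 0.673 in WT shoots. NHX6 was the next in every group. SOS1 came directly below it in CCA1-ox roots, WT roots and WT shoots, at 11.8 ± 0.862, 11.2 ± 0.291 and 5.18 ± 0.192 FPKM. In CCA1-ox shoots NHX2, at 8.28 ± 0.4002 FPKM, stood above SOS1, at 5.68 ± 0.162, and its libraries overlapped those of NHX6, at 8.68 ± 0.449. In roots NHX2 and NHX4 could not be ordered, since their libraries overlapped in CCA1-ox (3.99 ± 0.390 and 4.07 ± 0.417 FPKM) and in WT (4.41 ± 0.424 and 4.41 ± 0.223 FPKM). All other neighbours in the order of each group were separated in every library.

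**Figure D1:**
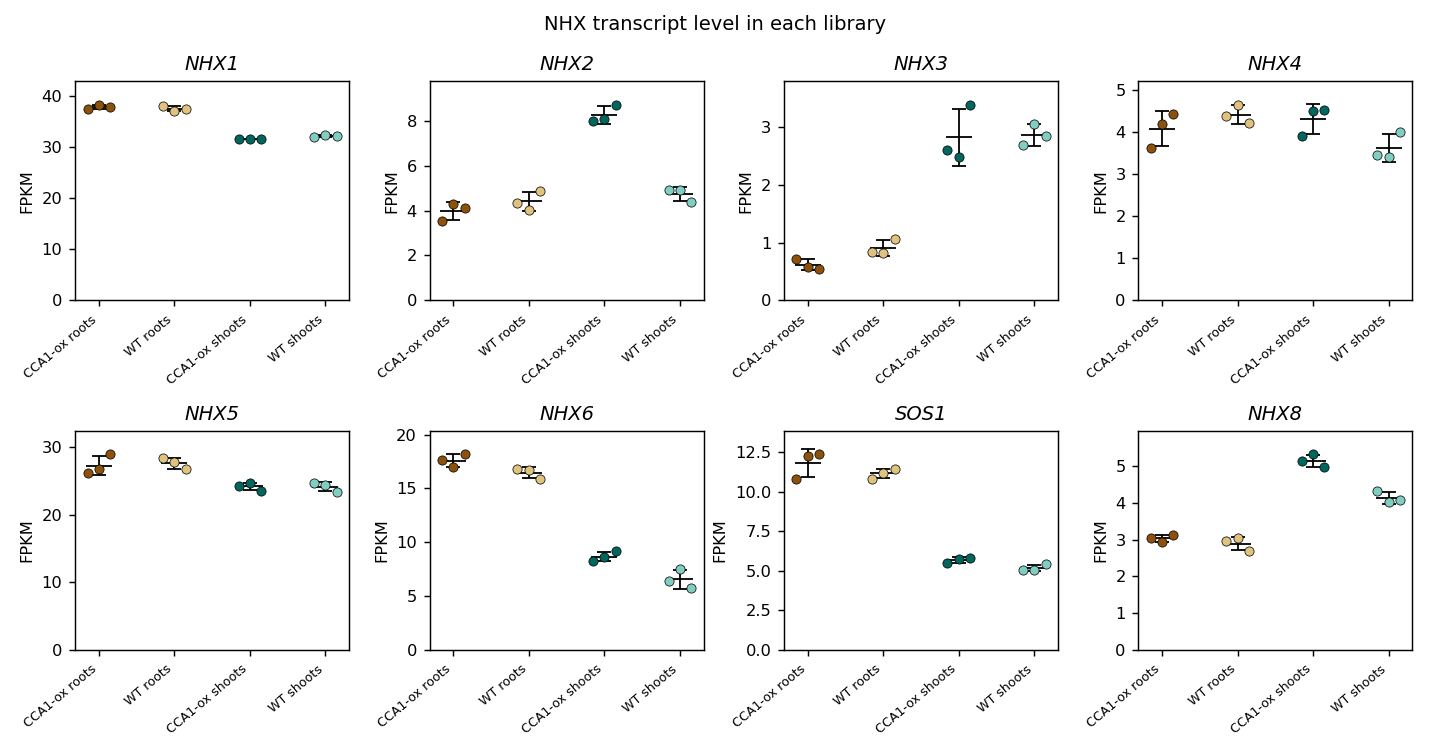
Level of each NHX gene in FPKM (vertical axes, each starting at 0 with its own scale) in the 3 libraries of CCA1-ox roots, WT roots, CCA1-ox shoots and WT shoots; points are libraries and bars are mean ± SD. NHX2 stands apart in CCA1-ox shoots, at 8.00 to 8.74 FPKM, while NHX6 and SOS1 are high in roots and NHX3 is low there.

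In shoots, 4 of the 8 members were higher in CCA1-ox than in WT: NHX2, NHX4, NHX6 and NHX8. The rise was largest for NHX2, whose mean was 1.74 times that of WT, and the means of NHX6, NHX8 and NHX4 were 1.33, 1.24 and 1.19 times those of WT. No member was called lower. The most abundant members of the vacuolar and endosomal classes, NHX1 and NHX5, were not called, with means 0.981 and 1.002 times those of WT. A call is an adjusted p under 0.05 from limma on log2(FPKM + 1) with Benjamini-Hochberg adjustment over 20975 genes, a scale that understates changes of low genes. By that rule 55.5% of all genes tested were called in shoots, 26.6% higher and 28.9% lower. The median log2 fold change was 0.16 over the 8 members and -0.0083 over all genes tested, while the median size of the change without its sign was 0.16 over the members and 0.19 over all genes.

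NHX2, which with NHX1 carries potassium into the vacuole, had 8.00, 8.10 and 8.74 FPKM in CCA1-ox shoots, against 4.94, 4.92 and 4.37 FPKM in WT shoots. The groups did not overlap, and every CCA1-ox library was above every WT library by a wide margin. The log2 fold change was 0.69 with an SE of 0.0750 (limma with Benjamini-Hochberg adjustment, adjusted p = 3.59e-06), larger in size than that of 91.1% of the genes tested. NHX1 had 31.5, 31.6 and 31.7 FPKM in CCA1-ox shoots, against 32.04, 32.4 and 32.3 FPKM in WT shoots. Its libraries did not overlap either, with CCA1-ox the lower, but the log2 fold change of -0.027 ± 0.0247 (SE) was not called (adjusted p = 0.384) and its sign turned with the scaling, as given below. NHX4, a vacuolar exchanger with a role in sodium handling, had 3.90, 4.48 and 4.52 FPKM in CCA1-ox shoots, against 3.45, 3.39 and 3.98 FPKM in WT shoots. The lowest CCA1-ox library lay below the highest WT library, so the groups overlapped, and the log2 fold change was 0.20 ± 0.0772 (SE, adjusted p = 0.0396). The NHX4 call did not hold in 9 of 21 alternative analyses. Among these were the fits without WT shoots replicate 1 or 2, CCA1-ox shoots replicate 2 or 3, or WT roots replicate 1, with adjusted p = 0.112, 0.126, 0.115, 0.121 and 0.0509. NHX3 had 2.60, 2.49 and 3.39 FPKM in CCA1-ox shoots, against 2.69, 3.06 and 2.85 FPKM in WT shoots. These overlapped, with the highest library and the lowest one both in CCA1-ox, and the gene was not called (log2 fold change -0.021, adjusted p = 0.880).

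Of the endosomal pair, NHX6 rose and NHX5 was not called. NHX6 had 8.26, 8.61 and 9.15 FPKM in CCA1-ox shoots, against 6.36, 7.52 and 5.76 FPKM in WT shoots. Every CCA1-ox library was above every WT library, although WT shoots replicate 2 came close (log2 fold change 0.36 ± 0.0703 SE, adjusted p = 0.000602 from limma). NHX5 had 24.3, 24.7 and 23.6 FPKM in CCA1-ox shoots, against 24.7, 24.4 and 23.4 FPKM in WT shoots. The groups overlapped almost wholly, and the log2 fold change was 0.0029 ± 0.0407 (SE, adjusted p = 0.970).

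Both plasma membrane members were higher in every CCA1-ox shoot library than in every WT shoot library, and NHX8 passed the test. NHX8 had 5.12, 5.32 and 4.98 FPKM in CCA1-ox shoots, against 4.31, 4.01 and 4.07 FPKM in WT shoots. The log2 fold change was 0.26 ± 0.0559 (SE, limma adjusted p = 0.00144). SOS1 had 5.51, 5.72 and 5.83 FPKM in CCA1-ox shoots, against 5.07, 5.07 and 5.402 FPKM in WT shoots. The SOS1 groups were separated narrowly, by less than the spread within WT, and the log2 fold change of 0.11 ± 0.0535 (SE) was not called (adjusted p = 0.0905). Without CCA1-ox roots replicate 1, which enters only through the shared estimate of spread, SOS1 was called (adjusted p = 0.0458). Counting members whose shoot libraries did not overlap gave 4 higher (NHX2, NHX6, SOS1 and NHX8) and 1 lower (NHX1), where 28.7% and 31.7% of all genes tested were separated in these directions and 60.4% in either.

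Markers of vascular and endodermal cells also differed between these shoots. The 8 xylem markers summed to 142 to 144 FPKM in CCA1-ox shoots and 76.1 to 78.8 in WT shoots, and all 8 were called higher. The 8 endodermis markers summed to 46.6 to 52.4 FPKM in CCA1-ox shoots and 21.1 to 23.4 in WT shoots, again with all 8 called higher. The 5 guard cell markers summed to 34.4 to 36.3 FPKM in CCA1-ox shoots and 38.1 to 38.4 in WT shoots, with 2 called higher and 2 lower. Of the 5 green tissue markers 4 were called lower, and the 5 root markers stayed under 1 FPKM in sum in both. The part of these cell types in the NHX values was not tested, and in whole shoots or roots fewer cells of a type and less RNA per cell cannot be told apart.

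In roots no member was called between CCA1-ox and WT by limma, where 36.3% of all genes tested were called, 20.8% higher and 15.4% lower. At an unadjusted p under 0.05 there was 1 member, NHX3, and limma-voom on recovered fragments, scaled to summed fragments, called 1, again NHX3. NHX3 had 0.721, 0.569 and 0.546 FPKM in CCA1-ox roots, against 0.840, 0.819 and 1.06 FPKM in WT roots. All CCA1-ox libraries were below all WT libraries, as for 19.7% of all genes tested, on 34 to 99 fragments per library, and the log2 fold change on log2(FPKM + 1) was -0.24 ± 0.0926 (SE, adjusted p = 0.0591). NHX3 passed the filter on low values through its shoot libraries. It became called without CCA1-ox shoots replicate 3 (adjusted p = 0.0261) or without CCA1-ox roots replicate 1 (log2 fold change -0.29, adjusted p = 0.0487). With a pseudocount of 0.1 in place of 1 its log2 fold change was -0.50 (adjusted p = 0.0242).

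The 4 members called in shoots were not called in roots. NHX2 had 3.55, 4.30 and 4.11 FPKM in CCA1-ox roots, against 4.36, 4.01 and 4.86 FPKM in WT roots. The groups overlapped, with the lowest library in CCA1-ox and the highest in WT (log2 fold change -0.12 ± 0.0750 SE, adjusted p = 0.255). NHX6 had 17.6, 16.97 and 18.2 FPKM in CCA1-ox roots, against 16.8, 16.7 and 15.8 FPKM in WT roots. The CCA1-ox libraries were all the higher, as for 27.6% of all genes tested (47.2% were separated in either direction), by a log2 fold change of 0.091 ± 0.0703 (SE) that was not called (adjusted p = 0.353). NHX8 had 3.04, 2.94 and 3.12 FPKM in CCA1-ox roots, against 2.96, 3.03 and 2.69 FPKM in WT roots, and these overlapped. NHX4 had 3.61, 4.18 and 4.43 FPKM in CCA1-ox roots, against 4.38, 4.65 and 4.20 FPKM in WT roots, and these overlapped too. SOS1, the sodium exporter, had 10.8, 12.3 and 12.4 FPKM in CCA1-ox roots, against 10.8, 11.2 and 11.4 FPKM in WT roots. Its lowest CCA1-ox library, replicate 1, lay just below the lowest WT library, and the log2 fold change of 0.076 ± 0.0535 (SE) was not called (adjusted p = 0.310). NHX1 and NHX5 overlapped between the genotypes, with root log2 fold changes of 0.016 and -0.017. The median root log2 fold change was -0.00070 over the members and 0.016 over all genes tested. Endodermis markers summed to 532 to 559 FPKM in CCA1-ox roots and 374.5 to 387 in WT roots, with all 8 called higher, and xylem markers to 244 to 246 and 240 to 243 FPKM in the same roots, with 1 of 8 called higher. The part of the endodermis in the root values was not tested.

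**Figure D2:**
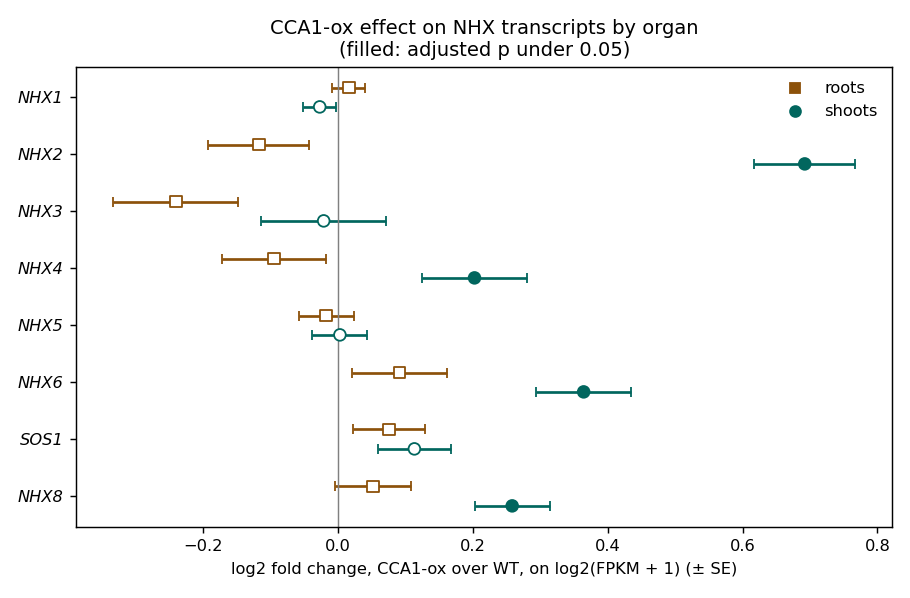
Log2 fold change of CCA1-ox over WT for each NHX gene (horizontal axis, on log2(FPKM + 1)), in roots (squares) and shoots (circles); bars are ± SE and filled symbols have an adjusted p under 0.05. The 4 filled symbols are all in shoots, with NHX2 farthest to the right at 0.69, and no root symbol is filled.

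The difference between the root effect and the shoot effect was tested as an interaction. It was called for 4 of 8 members, NHX2, NHX4, NHX6 and NHX8, each with a smaller log2 fold change in roots than in shoots, where 50.7% of all genes tested were called, 23.5% with a smaller value in roots and 27.2% with a larger one. NHX2 had an effect in roots lower than in shoots by a log2 value of -0.81 ± 0.106 (SE, limma adjusted p = 2.97e-05), and this call held in all 21 alternatives run. The differences were -0.30 ± 0.109 for NHX4 (adjusted p = 0.0365), -0.27 ± 0.0994 for NHX6 (adjusted p = 0.0353) and -0.21 ± 0.0790 for NHX8 (adjusted p = 0.0438). These 3 lay close to the threshold, and each call was lost when any 1 of several libraries was left out. In some of these fits the value itself hardly moved. It was -0.30 for NHX4 without WT roots replicate 1, and -0.28 for NHX6 without CCA1-ox shoots replicate 2. For NHX8 it was -0.21 without CCA1-ox shoots replicate 1. The NHX4 call was lost without any 1 of WT shoots replicates 1 and 2, CCA1-ox shoots replicates 2 and 3, WT roots replicates 1 and 2, and CCA1-ox roots replicate 1 (adjusted p = 0.0759, 0.0815, 0.0768, 0.0797, 0.0591, 0.0845 and 0.0895). The NHX6 call was lost without any 1 of WT shoots replicates 1 and 3, CCA1-ox shoots replicates 2 and 3, WT roots replicates 1 and 2, and CCA1-ox roots replicates 1 and 2 (adjusted p = 0.0686, 0.0799, 0.0538, 0.0819, 0.0723, 0.0692, 0.0584 and 0.0776). The NHX8 call was lost without any 1 of WT shoots replicates 2 and 3, CCA1-ox shoots replicates 1 and 2, WT roots replicates 1 and 2, and each of the CCA1-ox roots replicates (adjusted p = 0.0883, 0.0780, 0.0669, 0.0927, 0.0868, 0.1003, 0.0641, 0.0876 and 0.0502). The count of called members was then 1 or 2 without any library but WT roots replicate 3, CCA1-ox roots replicate 3 and CCA1-ox shoots replicate 1. NHX1, NHX3, NHX5 and SOS1 were not called, at 0.043, -0.22, -0.020 and -0.038 (adjusted p = 0.328, 0.182, 0.791 and 0.704).

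The deposited FPKM rest on library sizes that differ from the summed fragments. The size used over the sum averaged 1.10 in CCA1-ox roots, 1.15 in WT roots, 0.976 in CCA1-ox shoots and 0.906 in WT shoots, so scaling to the sums moves a gene by 0.11 log2 in the shoot comparison and -0.066 in the root comparison. With the sums, the share of called genes that were higher in CCA1-ox was 66.0% in shoots and 38.8% in roots, where it was 48.0% and 57.4% as deposited. In the interaction the median over all genes moved to -0.11 with the sums and -0.16 with limma-voom, against 0.037 as deposited, and the share of its calls that were higher in roots to 29.0%, against 53.6%. Relative to the median gene, NHX2 in shoots was 0.70 as deposited, 0.72 with the sums and 0.82 with limma-voom, whose scale has no pseudocount of 1. Relative to it, the NHX2 interaction was -0.85, -0.84 and -0.96. With the sums SOS1 was also called higher in CCA1-ox shoots (log2 fold change 0.20, adjusted p = 0.00546), as were NHX1 (0.078) and NHX5 (0.11), both of which lay within 0.05 of the median gene. Under quantile normalization NHX4 was not called in shoots (0.083, adjusted p = 0.383). NHX2, NHX6 and NHX8 were called higher in CCA1-ox shoots in every alternative that tested them.

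**Figure D3:**
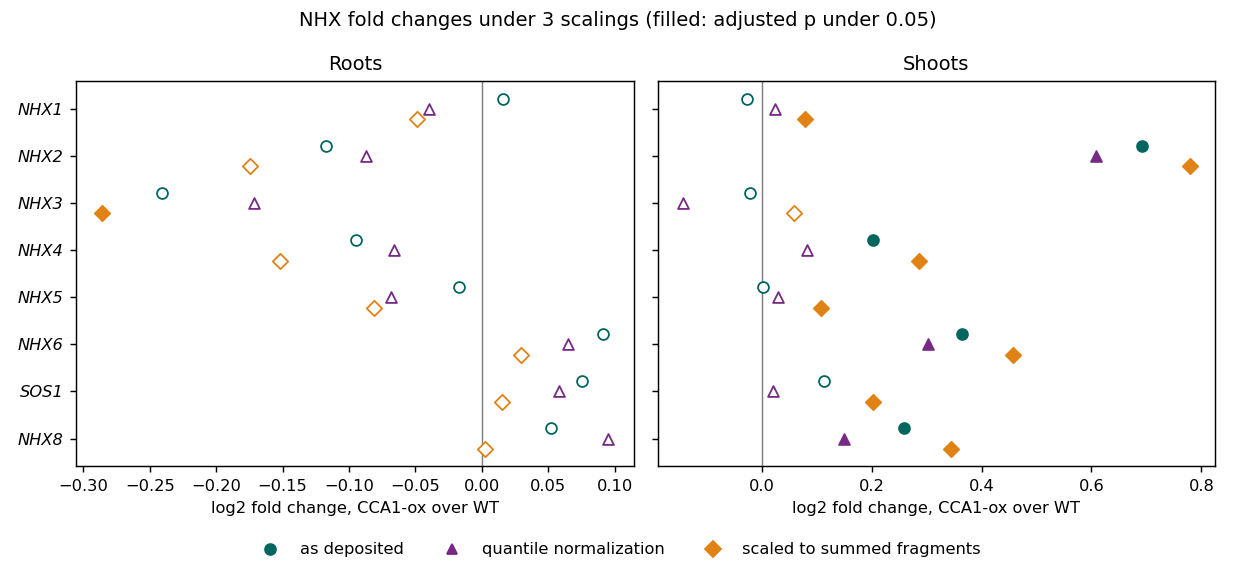
Log2 fold change of CCA1-ox over WT (horizontal axes, with a separate range in each panel) for each NHX gene in roots (left) and shoots (right), with the FPKM as deposited (circles), after quantile normalization (triangles) and scaled to summed fragments (diamonds); filled symbols have an adjusted p under 0.05. NHX2, NHX6 and NHX8 are filled under all 3 scalings in shoots, and NHX1 changes side.

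Between the organs nearly every member differed, and so did nearly every gene. In WT, 5 members were higher in roots than in shoots (NHX1, NHX4, NHX5, NHX6 and SOS1) and 2 were lower (NHX3 and NHX8), where 87.2% of all genes tested were called, 45.3% higher in roots and 41.8% lower. In CCA1-ox, 4 members were higher in roots (NHX1, NHX5, NHX6 and SOS1) and 3 lower (NHX2, NHX3 and NHX8), where 86.7% of all genes tested were called, 45.2% higher in roots and 41.5% lower. NHX6 and SOS1 had the largest root excess. The NHX6 mean in WT roots was 2.51 times that in WT shoots (log2 fold change 1.22 ± 0.0703 SE, limma adjusted p = 8.25e-10), and in CCA1-ox roots 2.03 times that in CCA1-ox shoots (0.94, adjusted p = 1.54e-08). The SOS1 mean in WT roots was 2.15 times that in WT shoots (0.98 ± 0.0535 SE, adjusted p = 4.55e-10), and in CCA1-ox roots 2.08 times that in CCA1-ox shoots (0.94, adjusted p = 7.46e-10). Of their paralogs, NHX5 in WT roots was 1.14 times its level in WT shoots, and NHX8 in WT roots was 0.700 times its level in WT shoots (log2 fold change -0.40 ± 0.0559 SE, adjusted p = 1.27e-05).

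NHX3 was low in roots. It passed the filter on low values only through its shoot libraries, where it is high, so its organ calls counted above carry no weight and its values are a description. Its mean in WT roots was 0.316 times that in WT shoots (log2 fold change on log2(FPKM + 1) -1.02 ± 0.0926 SE), and in CCA1-ox roots 0.216 times that in CCA1-ox shoots (-1.24). NHX2 differed by organ in CCA1-ox and was not called in WT. It had 3.55 to 4.30 FPKM in CCA1-ox roots and 8.00 to 8.74 in CCA1-ox shoots (log2 fold change -0.90, adjusted p = 5.45e-08), while its WT root libraries, 4.01 to 4.86 FPKM, overlapped its WT shoot libraries, 4.37 to 4.94 (log2 fold change -0.088, adjusted p = 0.280). NHX4 was called between organs in WT and not in CCA1-ox. It was 1.22 times as high in WT roots as in WT shoots (0.23, limma adjusted p = 0.0123), against a log2 fold change of -0.065 in CCA1-ox (adjusted p = 0.436). The interaction given above is the test of these differences between genotypes, and it was negative for both genes (-0.81 for NHX2 and -0.30 for NHX4). Scaled to summed fragments, the median gene was 0.33 higher in WT roots than in WT shoots and 0.19 higher in CCA1-ox roots than in CCA1-ox shoots, against 0.035 and 0.042 as deposited. The share of calls higher in WT roots was then 65.6%, against 52.0%. On that scale NHX2 was called higher in WT roots (0.19, adjusted p = 0.0260), while relative to the median gene it stayed at -0.14, near its -0.12 as deposited. NHX8 stayed lower at -0.14 (adjusted p = 0.0384).

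By class, the summed FPKM of the family was 106 ± 3.28 in CCA1-ox roots, 105 ± 1.19 in WT roots, 90.7 ± 1.33 in CCA1-ox shoots and 83.5 ± 1.33 in WT shoots (SD, n = 3 each). The vacuolar members NHX1 to NHX4 summed to 46.6, 47.2, 47.0 and 43.4 FPKM in these groups. The endosomal pair summed to 44.9, 44.1, 32.9 and 30.7 FPKM, and the plasma membrane pair to 14.9, 14.04, 10.8 and 9.31 FPKM. Vacuolar members made up 43.8% of the family's summed FPKM in CCA1-ox roots, 44.8% in WT roots, 51.8% in CCA1-ox shoots and 52.1% in WT shoots. Without NHX1, the remaining vacuolar members summed to 8.67 ± 0.683 FPKM in CCA1-ox roots, 9.72 ± 0.343 in WT roots, 15.4 ± 1.11 in CCA1-ox shoots and 11.2 ± 0.143 in WT shoots. The CCA1-ox shoot libraries, at 14.5 to 16.6 FPKM, lay above all WT shoot libraries, at 11.1 to 11.4. In roots they lay below, at 7.88 to 9.09 FPKM in CCA1-ox and 9.48 to 10.12 FPKM in WT. Most of the shoot difference in this sum is that of NHX2, at 8.28 FPKM in CCA1-ox shoots and 4.75 in WT shoots. NHX4 averaged 4.30 and 3.61 FPKM in the same shoots, and NHX3 2.83 and 2.87. The class sums were not tested.

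Genes whose level ran most like a member over the 12 libraries were found by Pearson's r of log2(FPKM + 1), a description in which the libraries share organ and genotype. NHX2 was most like MAX2, the F-box protein of strigolactone and karrikin signalling (r = 0.988), ADS2, a fatty acid desaturase (r = 0.983), and WES1, an auxin-conjugating enzyme of the GH3 family (r = 0.978). MAX2 averaged 11.996 FPKM in CCA1-ox roots, 12.8 in WT roots, 17.6 in CCA1-ox shoots and 13.2 in WT shoots. WES1 averaged 12.4 FPKM in CCA1-ox roots, 13.1 in WT roots, 35.1 in CCA1-ox shoots and 14.3 in WT shoots. All 3 had, like NHX2, their highest mean in CCA1-ox shoots, which follows from their choice by likeness to NHX2 in these libraries. With NHX2, 290 tested genes had r over 0.9, against 1492 with NHX5 and 2585 with NHX8. With NHX1, NHX3, NHX6 and SOS1, 6147, 5511, 6081 and 6450 genes passed that mark. NHX8 was most like PUB45 (r = 0.993), a U-box protein, at 4.12 FPKM in CCA1-ox roots, 3.97 in WT roots, 5.89 in CCA1-ox shoots and 5.09 in WT shoots. NHX6 was most like PDIL1-4 (r = 0.997), a protein disulfide isomerase, NHX1 like BIK1 (r = 0.998), a receptor-like cytoplasmic kinase, and SOS1 like AT5G45580 (r = 0.998). NHX4 had no gene over 0.9, and its nearest was IQD11 (r = 0.896). NHX3 was most like AT3G54366 (r = 0.995) and NHX5 like AT3G10980 (r = 0.957). Between members, r was 0.971 for NHX6 with SOS1 and 0.980 for NHX1 with SOS1, against -0.734 for NHX1 with NHX2.

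Of 17 genes of the SOS pathway and its regulators, all tested, 8 were higher and 5 lower in CCA1-ox shoots than in WT shoots, and 6 were higher and 3 lower in CCA1-ox roots than in WT roots. Over all genes tested, 26.6% were higher and 28.9% lower in shoots, and 20.8% were higher and 15.4% lower in roots. The root split turned with the scaling, to 2 higher and 4 lower with summed fragments, 2 and 6 with limma-voom so scaled, and 2 and 5 under quantile normalization. The shoot split moved too, to 11 higher and 4 lower, 11 and 5, and 8 and 3 under the same 3 settings. The 9 root calls were 5 without WT roots replicate 3 or without CCA1-ox roots replicate 2, and 6 with a pseudocount of 0.1. Their median log2 fold changes were 0.12 in shoots and 0.022 in roots, against -0.0083 and 0.016 over all genes tested. GI, a clock protein that holds SOS2 inactive, was called in both organs. GI averaged 17.8 ± 0.860 FPKM in CCA1-ox roots and 10.5 ± 0.290 in WT roots (log2 fold change 0.71, limma adjusted p = 7.06e-08), and 17.1 ± 0.601 in CCA1-ox shoots and 4.41 ± 0.159 in WT shoots (1.74, adjusted p = 2.13e-12). HKT1, which takes sodium back out of the xylem, differed in direction between organs. HKT1 averaged 2.13 ± 0.194 FPKM in CCA1-ox roots and 2.77 ± 0.153 in WT roots (-0.27, adjusted p = 0.0150), and 7.76 ± 0.504 in CCA1-ox shoots and 4.15 ± 0.488 in WT shoots (0.77, adjusted p = 1.78e-06). The HKT1 interaction was -1.04 ± 0.110 (SE, adjusted p = 4.08e-06). The HKT1 fall in roots was not called without WT roots replicate 3 or CCA1-ox roots replicate 2 (adjusted p = 0.0556 and 0.0648). The xylem markers given above moved with HKT1 in shoots, and their part in it was not tested.

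The kinases and sensors of SOS1 were called in both directions. SOS2 was not called in either organ (roots -0.067, adjusted p = 0.458; shoots 0.12, adjusted p = 0.128), but was called higher in CCA1-ox shoots with summed fragments (0.20, adjusted p = 0.0167). CIPK8, a kinase that works with CBL10 on SOS1, averaged 38.2 ± 0.449 FPKM in CCA1-ox roots and 35.1 ± 1.33 in WT roots (0.12, adjusted p = 0.0434), and 18.6 ± 0.525 in CCA1-ox shoots and 14.4 ± 0.849 in WT shoots (0.34, adjusted p = 1.21e-05). The CIPK8 root call was lost in 13 of 22 alternatives: with summed fragments the value was 0.055 (adjusted p = 0.365), and it was also lost without any 1 of WT roots replicates 1 and 3, WT shoots replicate 3, CCA1-ox shoots replicate 1 and each of the CCA1-ox roots replicates (adjusted p between 0.0522 and 0.147). SOS3, the calcium sensor used mainly in roots, was lower in both, at 5.15 ± 0.0636 FPKM in CCA1-ox roots and 6.79 ± 0.179 in WT roots (-0.34, adjusted p = 0.00225) and 0.389 ± 0.0818 in CCA1-ox shoots and 0.874 ± 0.168 in WT shoots (-0.43, adjusted p = 0.000193). The SOS3 root call was lost with a pseudocount of 0.1 (-0.39, adjusted p = 0.0553). CBL10, the sensor used mainly in shoots, averaged 30.2 ± 1.97 FPKM in CCA1-ox shoots and 35.8 ± 1.71 in WT shoots (-0.24, adjusted p = 0.0122). The CBL10 call was lost with summed fragments (-0.13, adjusted p = 0.149), under quantile normalization (adjusted p = 0.0716), with a pseudocount of 0.1 (adjusted p = 0.0569) and without CCA1-ox shoots replicate 3 (adjusted p = 0.0619). CIPK11, a kinase of the SOS2 family, averaged 25.5 ± 1.28 FPKM in CCA1-ox roots and 20.4 ± 1.72 in WT roots (0.31, adjusted p = 0.00385), and 4.84 ± 0.459 in CCA1-ox shoots and 2.71 ± 0.230 in WT shoots (0.65, adjusted p = 4.34e-06). CBL7, a sensor of the SOS3 family, averaged 0.888 ± 0.224 FPKM in CCA1-ox roots and 1.498 ± 0.301 in WT roots (-0.40). In shoots CBL7 averaged 0.0475 FPKM in CCA1-ox and 0 in WT. It thus passed the filter on low values only through root libraries, where WT is the higher group. Its root call, counted above, therefore carries no weight, and its values are a description. CBL7 was not called with a pseudocount of 0.1 (adjusted p = 0.113) or with limma-voom at the authors' library sizes (adjusted p = 0.0580).

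**Figure D4:**
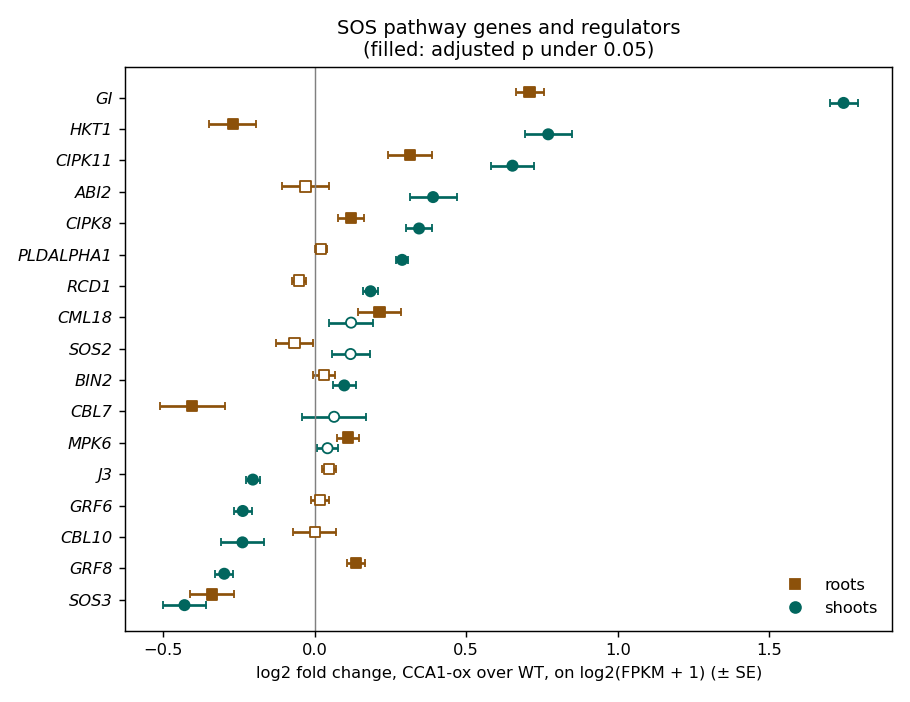
Log2 fold change of CCA1-ox over WT (horizontal axis, on log2(FPKM + 1)) for 17 genes of the SOS pathway and its regulators in roots (squares) and shoots (circles); bars are ± SE and filled symbols have an adjusted p under 0.05. GI lies farthest to the right in both organs, at 0.71 in roots and 1.74 in shoots, and HKT1 lies left of 0 in roots and right of it in shoots.

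Proton pumps of the endomembranes showed small changes. Plasma membrane H+-ATPases were not among the genes counted here. Of 7 pump genes, none was higher and 3 were lower in CCA1-ox shoots, and 1 was higher and 1 lower in CCA1-ox roots, with 3 in each organ at an unadjusted p under 0.05. Over all genes tested 55.5% were called in shoots and 36.3% in roots, and neither count of pumps exceeds that share. With summed fragments 1 was higher and 2 lower in shoots, and 0 higher and 1 lower in roots. Their median log2 fold changes were -0.078 in shoots and 0.030 in roots. AVP1, the vacuolar H+-pyrophosphatase, averaged 166 ± 1.86 FPKM in CCA1-ox roots and 178 ± 1.90 in WT roots (-0.098, limma adjusted p = 0.00112), and 261 ± 2.49 in CCA1-ox shoots and 286 ± 2.86 in WT shoots (-0.13, adjusted p = 4.86e-05, but not called at 0.058 under quantile normalization, or at -0.024 with summed fragments or limma-voom so scaled). VHA-a3, the membrane subunit of the vacuolar H+-ATPase, averaged 67.7 ± 1.16 FPKM in CCA1-ox shoots and 76.5 ± 0.936 in WT shoots (-0.17, adjusted p = 1.59e-05). DET3, its C subunit, averaged 54.8 ± 0.568 FPKM in CCA1-ox roots and 50.1 ± 1.34 in WT roots (0.13, adjusted p = 0.00298), and 45.0 ± 1.24 in CCA1-ox shoots and 51.1 ± 0.192 in WT shoots (-0.18, adjusted p = 0.000114). The DET3 rise in roots was not called when scaled to summed fragments (0.062, adjusted p = 0.104) or under quantile normalization (0.060, adjusted p = 0.122).

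Other cation/proton antiporters were counted beside the NHX genes. Among the 6 KEA genes and NHD1, 3 of 7 were lower in CCA1-ox shoots and none higher, where 28.9% of all genes tested were lower. With summed fragments the split was 1 lower and 2 higher (KEA4 and KEA6), the calls for KEA2 and NHD1 being lost (adjusted p = 0.345 and 0.948). The NHD1 call was also lost under quantile normalization (adjusted p = 0.246) and without any 1 of CCA1-ox shoots replicates 1 and 2 and WT shoots replicates 1 and 3 (adjusted p = 0.0564, 0.119, 0.0731 and 0.106). The largest change was that of KEA1, a chloroplast envelope potassium exchanger, at 59.1 ± 0.938 FPKM in CCA1-ox shoots and 75.1 ± 1.54 in WT shoots (-0.34, limma adjusted p = 7.42e-07). In CCA1-ox roots KEA2 and KEA6 were higher than in WT roots (adjusted p = 0.0219 and 0.0481) and 1 gene was lower, where 20.8% of all genes tested were higher and 15.4% lower. Neither rise was called when scaled to summed fragments (adjusted p = 0.258 for KEA2 and 0.329 for KEA6) or without WT roots replicate 2 or 3 or CCA1-ox roots replicate 2 (adjusted p = 0.0604, 0.0688 and 0.0958 for KEA2, and 0.127, 0.116 and 0.0765 for KEA6). The KEA6 call was also lost without any 1 of WT roots replicate 1, CCA1-ox roots replicates 1 and 3, WT shoots replicate 1 and CCA1-ox shoots replicate 2 (adjusted p between 0.0575 and 0.107). Their median log2 fold changes were -0.099 in shoots and 0.068 in roots, and 3 genes in each organ had an unadjusted p under 0.05. The lower one in roots was KEA3, a thylakoid exchanger, at 3.39 ± 0.269 FPKM in CCA1-ox roots and 4.93 ± 0.233 in WT roots (-0.44, adjusted p = 2.05e-05). Of the 28 CHX genes only 5 reached the level for testing, and 23 did not. In shoots 0 of these 5 were called by limma on FPKM as deposited, and 1 had an unadjusted p under 0.05. In 8 of 22 alternatives 1 CHX gene was called in shoots. It was CHX20, as higher, with limma-voom, with summed fragments and with a pseudocount of 5, while under quantile normalization 1 gene was lower. Their median log2 fold changes were 0.12 in shoots and -0.053 in roots. CHX16 alone was called lower in CCA1-ox roots, at 10.6 ± 0.996 FPKM, against 12.009 ± 0.196 in WT roots (-0.17, adjusted p = 0.0485), and the call was lost without any 1 library other than CCA1-ox roots replicate 1 (adjusted p between 0.0527 and 0.214). The most abundant, CHX17, an endomembrane exchanger of root cells, averaged 82.95 ± 2.27 FPKM in CCA1-ox roots and 86.1 ± 2.72 in WT roots, and 0.373 ± 0.135 in CCA1-ox shoots and 0.301 ± 0.0254 in WT shoots, with no call between genotypes in either organ as deposited.

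Since CCA1 binds DNA, the 500 bases before each gene's start in RefSeq TAIR10.1 were searched on both strands. The evening element AAAATATCT was in 0 of 8 members and in 4.33% of the 20872 windows of tested genes. The CCA1-binding site AAAAATCT was in 0 of 8 members and in 12.2% of these windows, and neither motif contains the other. The G-box CACGTG was in 2 of 8 members and in 9.84% of windows: in NHX3, with matches that begin 467 and 55 bases before the start, and in SOS1, with a match that begins 49 bases before it. Another gene, AT1G79620, takes up 312 of the 500 bases before NHX6, and AT1G05113 takes up 110 of those before NHX8. A match is a description of letters, and its absence says only that these letters are not in this window.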

How the data were processed

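The authors deposited 1 table of FPKM for 33010 genes in 12 libraries, 3 per group. Gene positions are on TAIR10 per the submitters' processing notes, and the libraries were stranded per the labels' protocols. How reads were aligned and counted, on which strand, and with what library size for the FPKM is not given in the sources used here. FPKM times gene length gave whole multiples of 1 step per library in 100% of values (tolerance 0.1), from which fragments were recovered. NHX3 in roots rests on the fewest fragments.

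The 20975 genes with at least 1 FPKM in at least 3 libraries were tested, all 8 NHX genes among them, and 12035 were not. Group means of log2(FPKM + 1) were fitted with limma (version 3.58.1, run in R 4.3.3) on the 12 libraries together (trended variance, 8 residual degrees of freedom, two-sided, Benjamini-Hochberg adjustment over all genes tested). The genotype comparisons, the interaction and the organ comparisons share libraries. Alternatives were other pseudocounts, filters and scalings, limma-voom on recovered fragments, a replicate block, fits of only the groups compared, and each library left out. Limma-voom with the authors' library sizes was chosen after seeing the data.

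The NHX genes and the gene lists were chosen with earlier results of these data known. Named genes are all 8 members, up to 3 called genes with the largest change per list and organ, or the most abundant where none was called, and the 3 genes most like each member; the text gives part of them, and SOS2, CBL10, CIPK8 and the other organ of a named gene were added after their values were seen. Sequences and exons came from RefSeq TAIR10.1, whose start and end matched for 32532 of 32548 shared genes, with Biopython 1.88. No 2 library columns were identical. The 12 replicate pairs differed by more than sampling noise, with median chi-squares of 1.01 to 1.29, against a median of 0.455 from noise alone.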

Additional observations from a re-analysis of the deposited data

Results flagged for a closer look

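The effect of CCA1 overexpression differed between roots and shoots for 4 of the 8 NHX genes by limma's test of the interaction with Benjamini-Hochberg adjustment. NHX2 differed by -0.81 on the log2(FPKM + 1) scale (adjusted p = 2.97e-05), with an effect of -0.12 in roots and 0.69 in shoots. NHX4 differed by -0.30 (adjusted p = 0.0365), with -0.095 in roots and 0.20 in shoots. NHX6 differed by -0.27 (adjusted p = 0.0353), with 0.091 in roots and 0.36 in shoots. NHX8 differed by -0.21 (adjusted p = 0.0438), with 0.052 in roots and 0.26 in shoots. At the same threshold 50.7% of all genes tested differed between organs, and the calls for NHX4, NHX6 and NHX8 were lost in 10 of 20, 10 of 21 and 13 of 20 alternatives. Groups of 3 libraries are too small for a test of single outlying libraries.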

How the results depend on the processing

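Over 22 alternatives per comparison (21 for the interaction), 770 of 857 fold changes of NHX genes kept direction and side of the threshold. With the direction kept, 42 lost a call and 16 gained one, and the other 29 changed sign. None of the 29 belonged to a call made as deposited. Of these, NHX1 in shoots and in the interaction, and NHX2 between WT organs, became called with summed fragments and with limma-voom so scaled. The number of members called in shoots, 4, was 2 with a filter at 5 FPKM (NHX3, NHX4 and NHX8 were then not tested), and 7 scaled to summed fragments or with limma-voom so scaled. In roots, 0, it was 1 with a pseudocount of 0.1, both of those scalings or only the 2 groups compared, and 0 to 1 with 1 library left out. The interaction count, 4, was 2 with a pseudocount of 0.1, no filter or a filter at 5 FPKM, 1 with quantile normalization, 7 with summed fragments, 8 with limma-voom, and 1 to 4 with 1 library left out. Between WT organs it was 4, against 7, with a filter at 5 FPKM. The cause of the other changes was not tested. The count of all genes called stayed within 1.5 times in every alternative, but its split moved toward the side of the added member calls. Of 20975 genes, 5582 were called higher and 6055 lower in shoots as deposited. With summed fragments these were 7612 and 3914, and with limma-voom so scaled 7934 and 4159. In the interaction 5705 were higher and 4931 lower as deposited. With summed fragments these were 3145 and 7697, and with limma-voom so scaled 2272 and 7818.

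Signs turned as follows, in the order quantile normalization, summed fragments and limma-voom: NHX1 was 0.025, 0.078 and 0.081 in shoots, -0.040, -0.048 and -0.048 in roots, and -0.065, -0.13 and -0.13 in the interaction. NHX4 in CCA1-ox roots against CCA1-ox shoots was 0.058, 0.070 and 0.10. NHX3 in shoots was 0.058 and 0.082, and NHX2 in WT roots against WT shoots 0.19 and 0.24, under the last 2. With quantile normalization the SOS1 interaction was 0.037, AVP1 in shoots 0.058 and CHX17 in shoots -0.18. With 1 library left out, ranges that crossed 0 were -0.12 to 0.042 for NHX3 and -0.019 to 0.020 for NHX5 in shoots, -0.059 to 0.010 for NHX5 in roots, -0.062 to 0.0073 and -0.069 to 0.019 for NHX5 and SOS1 in the interaction, -0.12 to 0.0016 for NHX4 between CCA1-ox organs, and -0.0054 to 0.12 for CHX17 in shoots.

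Same-numbered libraries of different groups did not deviate together (r between -0.045 and 0.042 in 18 pairs, and 14 of 36 best matches were to the same number). No pairing by number was seen, but shared plants or cultures need not leave such a trace, so pairing is not excluded. With a replicate block 11524 genes were called in shoots, 7463 in roots, 10521 in the interaction, 18266 between WT organs and 18171 between CCA1-ox organs. The block changed 1 NHX call, the NHX8 interaction (-0.21, adjusted p = 0.0596).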
